A study of Mus musculus with 2 samples.

Results

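The genes described here encode polypeptide growth factors, receptor tyrosine kinases and the binding proteins of the insulin-like growth factors. Igf2r, whose product is not a tyrosine kinase, is counted among the receptors, as are the collagen receptors Ddr1 and Ddr2. They were chosen by symbol from the deposited ATAC-seq peak table. Members were every gene called Fgf, Fgfr, Erbb, Igfbp or Flt followed by a number, and 25 further genes such as Pdgfa, Egfr, Nrg1, Igf1, Vegfa, Met, Ddr2 and Axl. Of 64 mouse genes with such a symbol, 46 had at least 1 assigned peak, out of 16934 genes with a peak. The members held 242 of the 43864 peaks that the table assigns to a gene. ATAC-seq counts insertions of the Tn5 transposase, so that the reads over a region follow how open its chromatin is. The cells were primary murine cardiac fibroblasts from heart tissue, and both groups had been exposed for 24 h to TGF-β at a concentration of 5 ng/ml. The SCR group (labelled NC) had been transfected with scrambled siRNA and the siPiezo2 group with an siRNA against Piezo2, which encodes a mechanosensitive ion channel. There was 1 library per group, so no test between the conditions was possible, and no difference below has a replicate check. The design text of the series names deletion of Tet3 by Cre in place of the siRNA; the sample labels and the study's legend, which name siPiezo2, were followed.

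Most growth factors of the PDGF, EGF, FGF, IGF and VEGF families are secreted ligands that bring receptor chains together at the cell surface. The FGF homologous factors, encoded by Fgf11 to Fgf14, stay inside the cell and are counted among the FGF ligands here by symbol only. The receptors then phosphorylate one another on tyrosine and recruit adaptors that feed the MAP kinase and PI3 kinase pathways. In the heart, PDGF receptors and DDR2 are known from fibroblasts, and NRG1 acts on the ERBB2 and ERBB4 receptors of cardiomyocytes. TGF-β, which both groups received, is itself a ligand of serine/threonine kinase receptors and is not a member.

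The log2 ratio given for a peak or gene is log2((siPiezo2 + 1)/(SCR + 1)) of the authors' normalized read densities, which are reads per kb of a 2000 bp window around the peak. Densities were summed over the peaks of a gene. The 95% exact binomial (Clopper-Pearson) interval of each ratio rests on whole reads recovered from the densities and covers counting error only. The SCR library had 17305 reads in member windows and the siPiezo2 library 10022, with a median of 61 and 36.5 reads per peak. The median log2 ratio over all genes with a peak was -0.093. Lower and higher refer below to log2 ratios under and over 0, and intervals are set against both 0 and the all-gene median, as stated. Coordinates of peaks and genes are those of the table, in GRCm39.

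The targeted gene, Piezo2, had 14 peaks with densities that summed to 334 (SCR) and 242 (siPiezo2), at a log2 ratio of -0.46 (interval -0.64 to -0.29). Accessibility of the gene does not measure the knockdown of its transcript. For the labelled cell type, 8 of 10 fibroblast marker genes had a peak and all 8 had one at a start site, while Lum and Thy1 had none. The summed density of the fibroblast list was 828 in SCR and 708 in siPiezo2. Among markers of other cell types, 3 of 6 cardiomyocyte genes had a peak (146 and 152; 1 with a start-site peak), with none at Myh6, Tnni3 or Nppa. The densities were 507 and 503 for 5 of 6 endothelial genes (1 with a start-site peak). They were 450 and 365 for 4 of 5 mural genes (2 with a start-site peak). For 3 of 6 immune genes, of which 0 had a start-site peak, they were 183 and 151. The part of these lists in the members' values was not tested, and a change in the share of a cell type cannot be told apart from a change of chromatin within cells.

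Of the 33 member peaks at a start site (a promoter within 1 kb or a 5′ UTR), 14 belonged to a transcript whose start lay within 150 bp of a promoter in the RefSeq table of GRCm38.p6. A set of 6 of these promoters is printed, 5′ to 3′, as the 250 bases before the start. The Vegfd promoter (chrX:164373272-164373521 on the plus strand) had the lowest log2 ratio of the 14 start-site peaks and the Fgf7 promoter (chr2:126034408-126034657 on the plus strand) the highest. The Ddr1 promoter (chr17:35700591-35700840 on the minus strand) belonged to the start-site peak with the most reads. The promoters of Axl (chr7:25788734-25788983 on the minus strand), Erbb2 (chr11:98412234-98412483 on the plus strand) and Met (chr6:17463707-17463956 on the plus strand) each held a motif searched for. Capitals mark a match to GGAATG, the core of TEAD sites, or to TGANTCA, the AP-1 site; both strands were searched.
Vegfd: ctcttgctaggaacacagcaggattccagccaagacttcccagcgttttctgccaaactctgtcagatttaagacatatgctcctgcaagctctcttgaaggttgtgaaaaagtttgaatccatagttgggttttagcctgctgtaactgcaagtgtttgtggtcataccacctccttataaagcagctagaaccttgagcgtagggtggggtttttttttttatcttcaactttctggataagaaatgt
Axl: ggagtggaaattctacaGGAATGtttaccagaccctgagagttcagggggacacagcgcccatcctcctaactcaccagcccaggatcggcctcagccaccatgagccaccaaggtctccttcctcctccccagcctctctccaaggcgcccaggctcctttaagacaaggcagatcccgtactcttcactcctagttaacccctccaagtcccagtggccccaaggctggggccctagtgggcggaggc
Erbb2: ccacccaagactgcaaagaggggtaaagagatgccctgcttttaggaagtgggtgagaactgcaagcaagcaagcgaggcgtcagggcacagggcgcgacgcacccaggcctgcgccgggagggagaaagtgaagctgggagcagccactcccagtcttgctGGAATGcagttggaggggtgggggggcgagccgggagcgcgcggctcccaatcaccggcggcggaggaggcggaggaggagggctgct
Met: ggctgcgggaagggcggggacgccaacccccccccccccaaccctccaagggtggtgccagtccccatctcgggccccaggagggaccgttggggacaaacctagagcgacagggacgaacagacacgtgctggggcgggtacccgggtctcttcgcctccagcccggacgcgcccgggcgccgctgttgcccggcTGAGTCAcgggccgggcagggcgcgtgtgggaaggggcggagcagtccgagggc
Ddr1: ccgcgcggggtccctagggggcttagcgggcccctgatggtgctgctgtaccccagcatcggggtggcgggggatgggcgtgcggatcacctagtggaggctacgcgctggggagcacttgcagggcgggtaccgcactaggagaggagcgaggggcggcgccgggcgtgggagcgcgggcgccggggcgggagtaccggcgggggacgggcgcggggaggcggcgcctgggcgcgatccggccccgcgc
Fgf7: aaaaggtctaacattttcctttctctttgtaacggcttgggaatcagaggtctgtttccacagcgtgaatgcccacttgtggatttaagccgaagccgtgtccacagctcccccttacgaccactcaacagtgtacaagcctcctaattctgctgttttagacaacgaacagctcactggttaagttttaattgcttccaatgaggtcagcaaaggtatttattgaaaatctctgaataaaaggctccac
The TEAD letters began 233 bases before the start of Axl and 88 bases before that of Erbb2, and the AP-1 letters 54 bases before that of Met. Neither motif, nor the CArG box of SRF, was found in the windows printed for Vegfd, Ddr1 and Fgf7, though another promoter of Ddr1 in the table held AP-1 letters. The TEAD core was present in 12.6% of all 32851 promoters of the table and in 5 of 47 member promoters (10.6%). AP-1 letters were present in 6.75% of all and also in 5 member promoters, and the CArG box in 1.47% of all and 1 member promoter, that of Pdgfc. The promoters printed differ in base composition: the window of Vegfd had 42.4% G and C with 2 CpG dinucleotides, that of Fgf7 had 43.6% with 6, and that of Ddr1 had 78% with 34. Over all promoters the medians were 52.4% and 6, and over member promoters 61.2% and 11. A match is a description of letters and not of binding.

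As a group, the members lay close to all genes. Their median log2 ratio was -0.14 (quartiles -0.38 and 0.052), and 28 of 46 were below 0 (60.9%, against 62.6% of all genes). Only Igfbp2 and Igf1 fell outside the limits of 0.66 and 1.5 of SCR, both on the lower side (2 of 46, 4.35%, where 6.21% of all genes were below 0.66). Under 4 other scalings of the libraries, which moved the all-gene median to between -0.0076 and 0.046, Igfbp2 was the only one of them past the limit, with Igf1 between -0.51 and -0.46. No member was above 1.5 (1.54% of all genes were), but 1 was in recovered reads at the same total, Fgf10 at 0.69 (0.31 as reported). Fgf10 had 1 peak, with 20 reads in each library, nearest to the start of another gene. The 25 ligands had a median of -0.22 and the 16 receptors of -0.097. When counting error was set beside each ratio, 10 members (21.7%) had an interval wholly below the all-gene median, against 9.01% of all genes. They were Ereg, Nrg1, Fgfr1, Fgfr2, Igfbp2, Igf1, Igf1r, Pdgfrb, Axl and Ddr1. Egfr and Igfbp7 (4.35%) had an interval wholly above it, against 8.47% of all genes. The number of reads sets the width of an interval, and 19 members (41.3%) had 300 or more reads, against 31.8% of all genes. Among genes with that many, 8 of 19 members (42.1%) lay wholly below, against 16.3% of all, and 2 (10.5%) wholly above, against 14% of all. Peaks called in both libraries varied 2.15 times as much as counting error gives. That factor comes from the median over these peaks, and the mean gives 4.75. With intervals widened by the former, 2 members stayed below the median, Fgfr2 and Nrg1, against 3.41% of all genes, and 0 stayed above, against 2.66% of all genes. With the latter, 0 members lay wholly below or above, against 0.774% and 0.573% of all genes. The place of Fgfr2 rests mostly on peaks found only on its longest transcript. Over the 6 peaks within its other transcripts the interval, not widened, included the all-gene median.

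**Figure D1:**
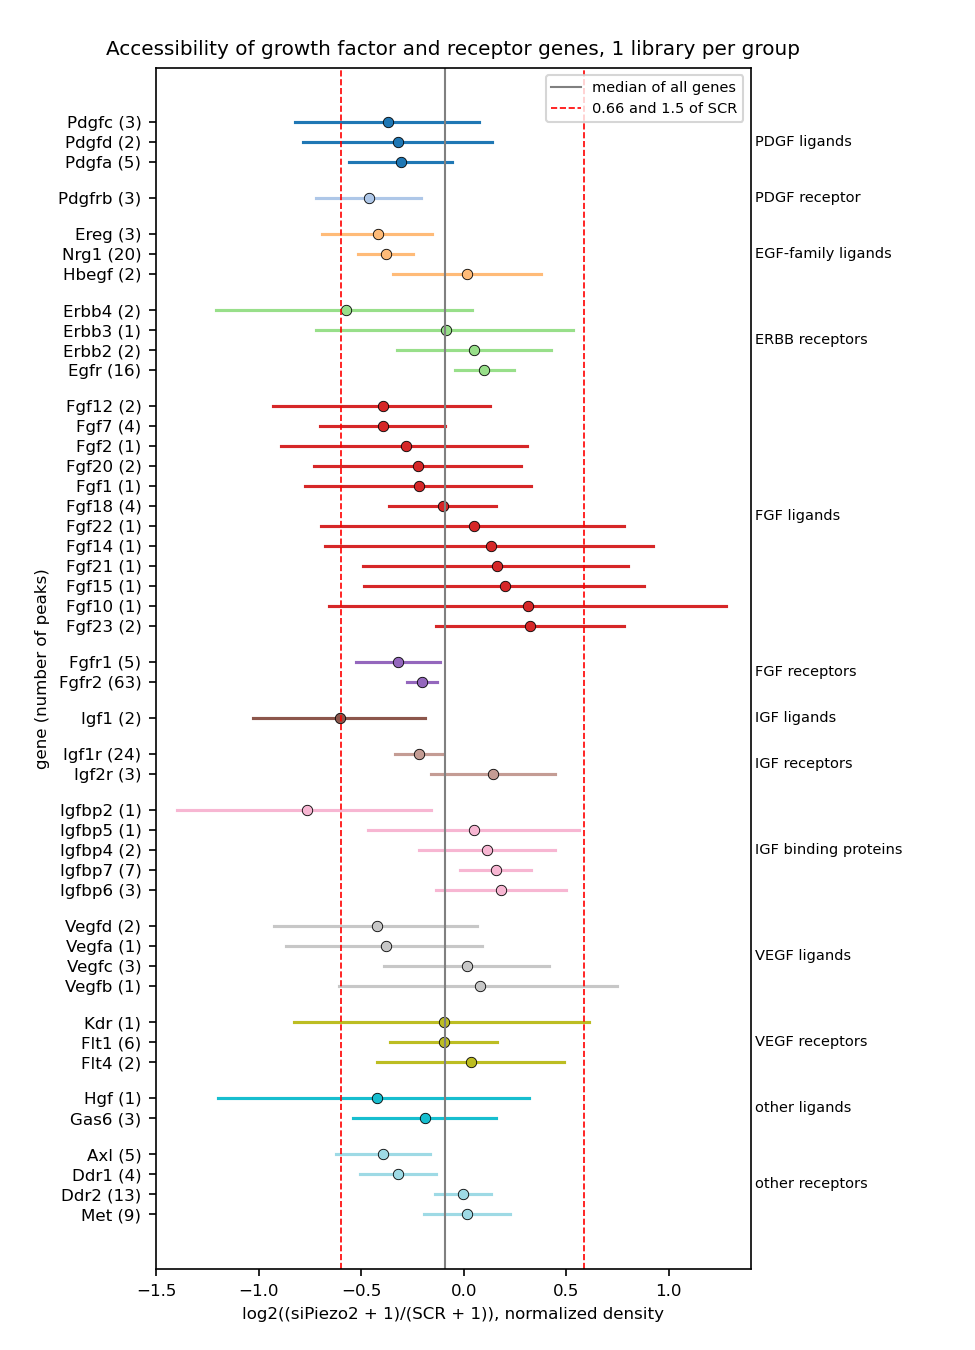
Log2 ratio of siPiezo2 to SCR (x axis) of each of the 46 genes (y axis, with its number of peaks), grouped by family. Points are the ratios of summed densities, bars are 95% exact binomial intervals for counting error, the grey line is the all-gene median of -0.093 and the dashed lines are 0.66 and 1.5 of SCR. The PDGF genes of the list (Pdgfra is not in it) and the FGF receptors lie left of the grey line. Igfbp2 and Igf1 lie past the left dashed line.

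Peak by peak, 163 of 242 member peaks were below 0 (67.4%, against 62.6% of all peaks with a gene). Below 0.66 of SCR were 40 member peaks (16.5%, against 12.2% of all), and above 1.5 were 5 (2.07%, against 2.82% of all). The split depended on the scaling, with 24 below (9.92%, against 7.34% of all) and 10 above (4.13%, against 5.89%) under median-of-ratios scaling. In recovered reads at the same total, 22 were below (9.09%, against 6.71%) and 15 above (6.20%, against 7.24%). Most member peaks lay in introns, 196 of 242 (81.0%, against 60.6%). Of these, 34 (17.3%) were below 0.66, against 14.8% of all intron peaks. Peaks called in both libraries were below 0 in 47 of 74 cases (63.5%, against 48.9%), with a median of -0.12 against 0.0096. A further 162 member peaks were called in SCR only (66.9%, against 61.2%) and 6 in siPiezo2 only (2.48%, against 1.99%). The nearest start site was that of the member itself for 154 member peaks (63.6%, against 81.5% of all peaks with a gene). It was so for none of the peaks of Igf1, Igf2r, Pdgfc and Fgf10. Peaks of 1 gene share a locus, and 5 members with 10 or more peaks (Fgfr2, Igf1r, Nrg1, Egfr and Ddr2) held 136 of the 242.

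**Figure D2:**
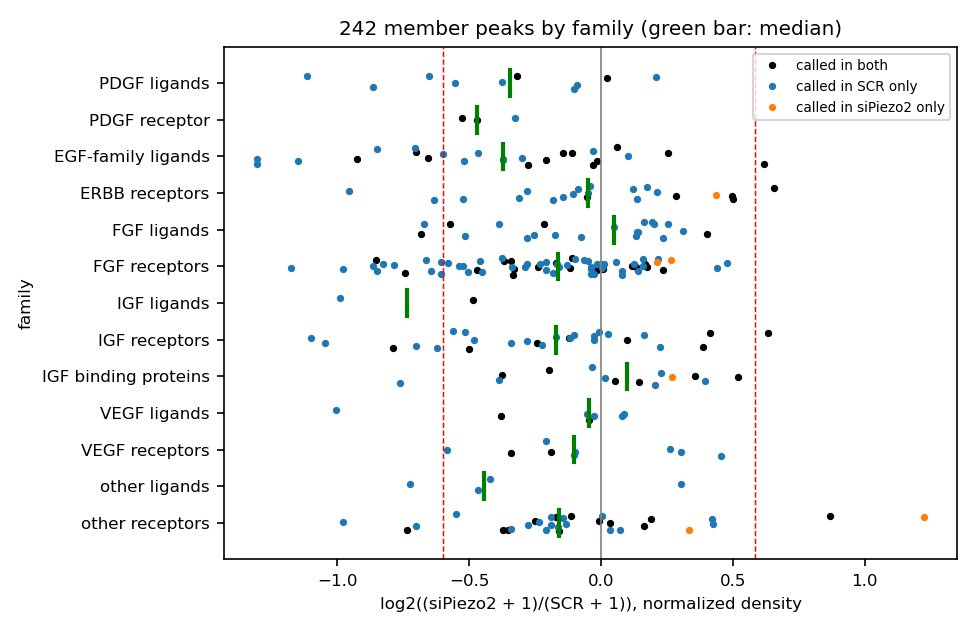
Log2 ratio of siPiezo2 to SCR (x axis) of each of the 242 peaks by family (y axis, points spread vertically for legibility), coloured by the library in which the peak was called. Green bars are family medians and dashed lines are 0.66 and 1.5 of SCR. Of the 5 peaks past 1.5, 2 belong to the group of Met, Axl and the DDR receptors.

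Summed over its peaks, each of the 4 listed PDGF genes with a peak had a log2 ratio below 0. The promoter peak of Pdgfd and the strongest peak of Pdgfc did not. Pdgfra, which encodes the other PDGF receptor, is not among the members chosen, so no value is given for it. PDGFs are the main mitogens of fibroblasts, and Pdgfrb encodes the receptor for PDGF-BB and PDGF-DD. Pdgfrb (chr18:61178222-61218133) had 166 in SCR and 120 in siPiezo2 over its peaks (-0.46, interval -0.72 to -0.21; 423 and 184 reads). All 3 of its peaks were lower, between -0.53 and -0.32. The strongest was in the 5′ UTR (chr18:61178011-61178571), with 197 and 78 reads, densities of 75.3 and 51.9 and a log2 ratio of -0.53. The ligand gene Pdgfa (chr5:138961769-138981842) had 159 and 129 over 5 peaks (-0.31, interval -0.56 to -0.058). All 5 were below 0, 1 of them at -0.090 and so not below the all-gene median, and 3 stayed below 0 under median-of-ratios scaling. Its 5′ UTR peak at 138980638 was the strongest (41.8 and 33.3, -0.32), and its lowest was in intron 2 at 138975366 (58 and 25 reads, -0.65). Pdgfc, with 3 intron peaks and 120 and 67 reads, was at -0.37, and its highest peak was at 81009493 (0.21). That peak was also its strongest. Pdgfd, with 2 peaks and 117 and 63 reads, was at -0.32. Its promoter peak, the stronger, was at 0.021 (76 and 50 reads, 31.1 and 31.6), so that the value of the gene came from its intron 3 peak at 6305703 (41 and 13 reads, -1.11). The intervals of Pdgfc and Pdgfd included 0, and that of Pdgfa included the all-gene median.

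Among EGF-family ligands, Nrg1 and Ereg were lower and Hbegf was not. Nrg1 (chr8:32304579-33374282), which encodes neuregulin 1, had 20 peaks that summed to 570 in SCR and 438 in siPiezo2 (-0.38, interval -0.51 to -0.25; 1372 and 695 reads). Its lowest peaks were a pair in intron 1 of the transcript ENSMUST00000207470 at 32465657 and 32465953, whose windows overlap and hold the same 44 and 12 reads (-1.30). With the pair counted as 1 measurement, the gene had 19 windows with 1328 and 683 reads (-0.35, interval -0.49 to -0.22). Of these, 16 were lower, 7 of them below 0.66 of SCR, and 1 was above 1.5. The windows below 0.66 were not spread over the gene, as all 7 lay downstream of its promoter peak (chr8:32499452-32499909). The 9 windows downstream had summed densities of 279 and 160 (-0.80, interval -1.02 to -0.59; 670 and 254 reads), and all 9 were lower, also under each of the 4 other scalings. The 9 peaks upstream had 232 and 235 (0.024, interval -0.17 to 0.22; 559 and 373 reads). The promoter peak itself had 99 and 56 reads (-0.14, interval -0.64 to 0.34). This split was chosen after the values were seen and has no test. Among Nrg1 peaks with at least 60 reads, the lowest was in intron 11 at 32311605 (98 and 28 reads, -1.15) and the highest at 32824500 (78 and 76 reads, 0.62). The latter lies upstream of the promoter peak, in intron 1 of another transcript, ENSMUST00000209107. The strongest, in intron 5 at 32352831, had 156 and 49 reads, densities of 61.5 and 31.9 and a log2 ratio of -0.93 (interval -1.42 to -0.46).

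Ereg (chr5:91222481-91241505), the gene of epiregulin, had 148 and 110 over 3 peaks (-0.42, interval -0.69 to -0.15). The promoter peak (chr5:91221740-91222804) was its strongest and carried most of the difference, with 224 and 80 reads and densities of 85.0 and 53.6 (-0.66). Its intron 1 peak at 91230955 was at -0.017. Hbegf, the gene of heparin-binding EGF, had 67.2 and 68.1 over 2 peaks (0.018, interval -0.35 to 0.38).

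The receptors of these ligands did not share a direction. Egfr (chr11:16702203-16868158) had 396 in SCR and 425 in siPiezo2 over 16 peaks (0.10, interval -0.043 to 0.24; 950 and 679 reads), with 8 peaks lower and 8 higher. Its strongest peak was in intron 1 (chr11:16750509-16750950), with 99 and 95 reads, densities of 38.9 and 61.8 and a log2 ratio of 0.66. Its lowest lay in the same intron at 16745072 (47 and 21 reads, -0.64). Both of these, and 8 of the 16 peaks in all, were nearest to the start of another gene, and over the remaining peaks Egfr was at 0.017 with an interval that included the all-gene median. The promoter peak had 42.2 and 40.6 (-0.055). Erbb2, the coreceptor of the family, had 61.4 and 63.7 over 2 peaks (0.052). Erbb3 had 1 peak at -0.086. Erbb4 had 2 intron peaks with 69 and 34 reads in all (-0.57), and its interval, -1.21 to 0.040, included 0.

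**Figure D3:**
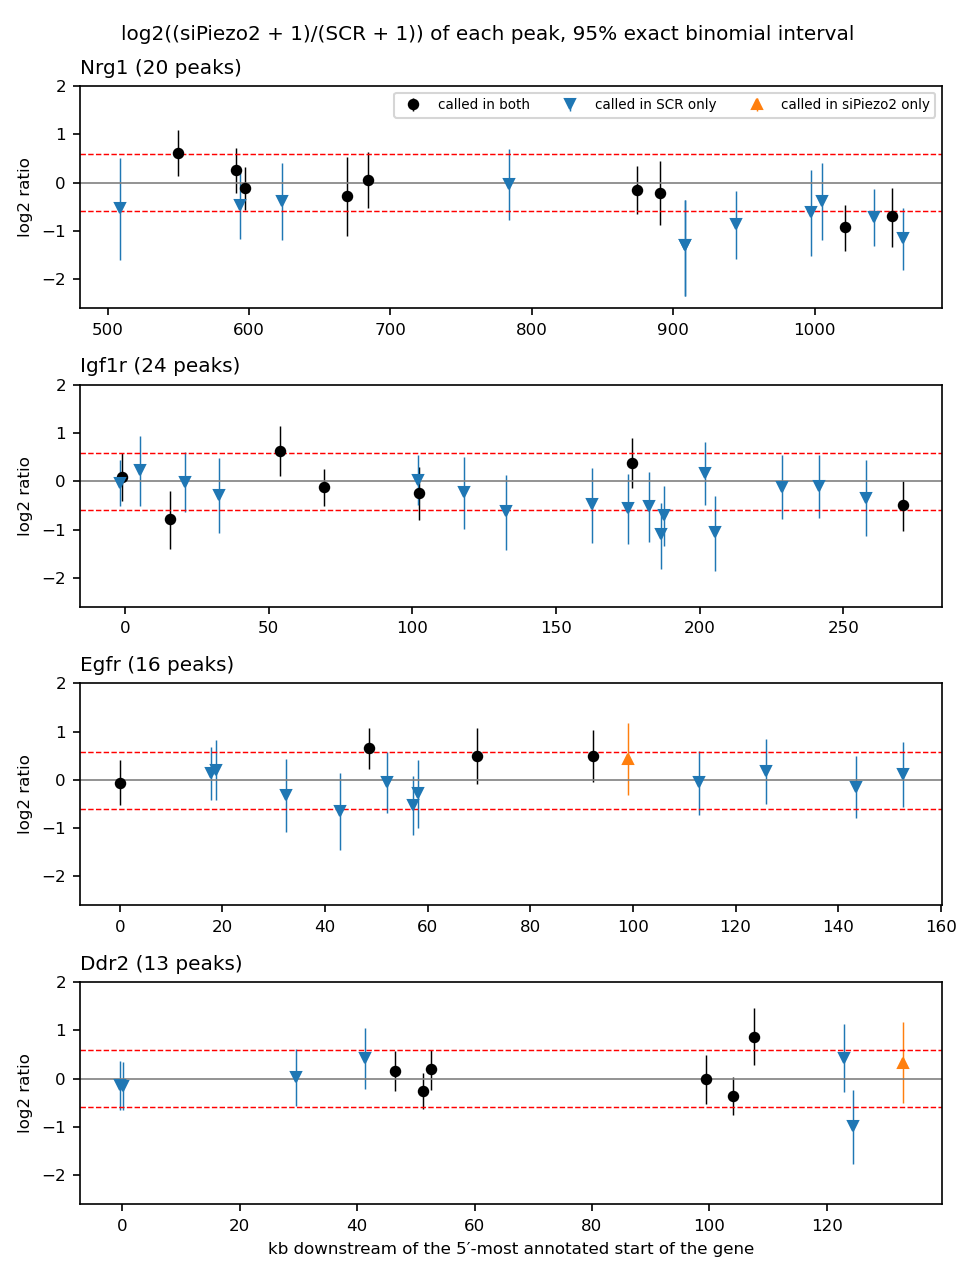
Log2 ratio of siPiezo2 to SCR (y axis) of each peak of Nrg1, Igf1r, Egfr and Ddr2 against its distance in kb from the 5′-most annotated start of the gene (x axis). Bars are 95% exact binomial intervals, symbols give the library in which the peak was called and dashed lines are 0.66 and 1.5 of SCR. In Nrg1 the peaks below the lower dashed line cluster at the 3′ end, while in Egfr and Ddr2 peaks lie on both sides of 0.

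Among FGF ligands, 12 of 22 symbols had a peak, with a median log2 ratio of -0.026, and 6 were below 0. They ranged from -0.39 (Fgf12, a homologous factor) to 0.33 (Fgf23). Fgf7 (chr2:125876578-125933105), the keratinocyte growth factor made by mesenchymal cells, had 112 and 84.7 over 4 peaks (-0.39, interval -0.70 to -0.089). Its 3 peaks in intron 2 were lower, the strongest at 125902554 with 105 and 41 reads and densities of 42.6 and 26.1 (-0.68), whereas its promoter peak was at 0.26 (44 and 37 reads). Fgf18 had 133 and 124 over 4 peaks (-0.10, interval -0.36 to 0.16). The Fgf18 peak beyond 1 kb upstream of the start (chr11:33098070-33098760) was the strongest, with 56.6 and 37.8 (-0.57, interval -1.04 to -0.12), and the 3 intron peaks lay between 0.14 and 0.24. The other 10 had 1 or 2 peaks each, and their intervals all included 0. They were Fgf1, Fgf2, Fgf10, Fgf12, Fgf14, Fgf15, Fgf20, Fgf21, Fgf22 and Fgf23. The highest FGF ligand peak with at least 60 reads was in intron 2 of Fgf23 at 127056774 (0.40).

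Both FGF receptor genes with a peak were lower. Fgfr1 (chr8:26003670-26065734), the main FGF receptor of mesenchymal cells, had 237 and 189 over 5 peaks (-0.32, interval -0.53 to -0.11; 598 and 290 reads). Its promoter peak (chr8:26008581-26008935) had 110 and 38 reads, with densities of 44.6 and 24.2 (-0.85, interval -1.43 to -0.31). Its strongest peak, in intron 3 at 26027184, went the other way, with 75.3 and 81.8 (0.12, interval -0.22 to 0.45).

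Fgfr2 had 63 peaks and 1697 in SCR against 1474 in siPiezo2 (-0.20, interval -0.28 to -0.13), but few of these peaks are near the gene's usual transcripts. The longest transcript in the table's annotation (chr7:129764181-132725079) spans 2960.9 kb and runs over neighbouring genes, whereas its other transcripts together span 103.812 kb. Only on the longest transcript lay 57 of the 63 peaks, and the nearest start site of 50 peaks was that of another gene, 21 genes in all. The 6 peaks within the other transcripts had 143 and 113 (-0.34, interval -0.61 to -0.079, with 337 and 182 reads), and 5 of them were lower. That interval included the all-gene median. The 57 others had 1553 and 1362 (-0.19, interval -0.27 to -0.11). The lowest was at 131975324 (108 and 30 reads, -1.18), which shares part of its window with the peak at 131974564 (-0.98), and the highest at 131948092 (0.48). The strongest, at 131011334, had 53.5 and 56.5 (0.079). The Fgfr2 promoter peak had 45 and 38 reads (0.27). The value of Fgfr2 therefore rests mostly on chromatin assigned to it through 1 long transcript, which also holds 57 of the 242 member peaks.

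**Figure D4:**
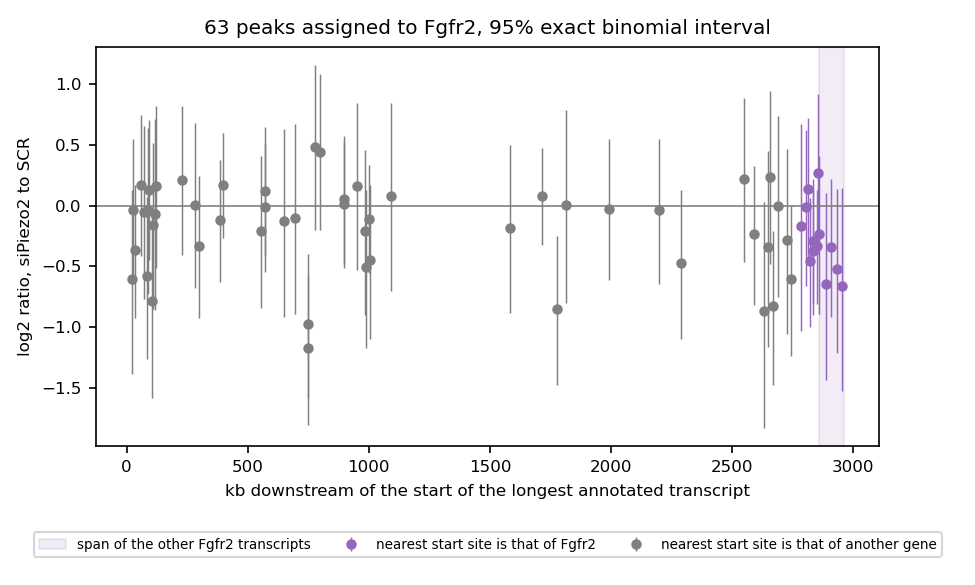
Log2 ratio of siPiezo2 to SCR (y axis) of the 63 peaks assigned to Fgfr2 against distance in kb from the start of the longest transcript (x axis), with 95% exact binomial intervals. The shaded stretch is the 103.812 kb of the other transcripts. Purple points are the 13 peaks whose nearest start site is that of Fgfr2, and grey points are the 50 nearest to another gene.

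In the IGF system the ligand, 1 receptor and 1 binding protein were lower. IGF-I is a survival and growth signal of many cell types, and the binding proteins hold it in complexes and limit or prolong its action. Igf1 (chr10:87694127-87766757) had 67.7 in SCR and 44.3 in siPiezo2 (-0.60, interval -1.03 to -0.19; 166 and 69 reads). Both of its peaks were in intron 3 and lower, the stronger (chr10:87715825-87716528) with 52.2 and 37.0 (-0.49) and the weaker at 87729279 with 34 and 12 reads (-0.99). Neither was nearest to the start of Igf1 itself. Igf1r (chr7:67602575-67883416), which encodes the receptor that transmits its signal, had 686 and 589 over 24 peaks (-0.22, interval -0.34 to -0.10; 1655 and 936 reads), with 18 peaks lower and 5 of them below 0.66. Its strongest peak was in intron 2 at 67671511 (64.4 and 59.1, -0.12), its lowest in the same intron at 67789069 (83 and 25 reads, -1.10) and its highest there at 67656353 (65 and 66 reads, 0.63). The peaks within about 2 kb upstream of its first start were at -0.028 and 0.098. Igf2r, the receptor that clears IGF-II, had 90.6 and 100 over 3 intron peaks (0.14, interval -0.16 to 0.45), the strongest in intron 10 at 12943294 with 39.1 and 52.4 (0.41).

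Of 5 IGF binding protein genes with a peak, Igfbp2 stood apart from the others. Igfbp2 (chr1:72863662-72891633) had 1 peak, in intron 1 (chr1:72878495-72879048), with 84 and 32 reads, densities of 34.8 and 20.1 and a log2 ratio of -0.76 (interval -1.40 to -0.16). The neighbouring gene Igfbp5, whose peak was called in both libraries, had 33.7 and 34.9 (0.052, interval -0.47 to 0.56). Igfbp4 had 76.4 and 82.8 over 2 peaks (0.12, interval -0.22 to 0.44), the stronger in intron 1 at 98938462 with 39.0 and 45.1. Igfbp6 had 81.0 and 92.1 over 3 peaks (0.18, interval -0.13 to 0.50), the strongest at its promoter with 29.7 and 28.9. Igfbp7 (chr5:77497087-77555888) had 271 and 302 over 7 peaks (0.16, interval -0.017 to 0.33; 680 and 466 reads). Its strongest peak was in intron 1 at 77520679 (127 and 107 reads, 49.0 and 70.6, 0.52), and the peak in exon 1, the only one nearest to the start of Igfbp7 itself, was at -0.38.

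The VEGF genes, which act mainly on endothelial cells, had few peaks and wide intervals. Vegfd was at -0.42, Vegfa at -0.38, Vegfc at 0.016 and Vegfb at 0.077, and the interval of each included 0. The Vegfa peak lay in intron 2 and had 119 and 56 reads, with densities of 47.3 and 36.1. The promoter peak of Vegfd had 47 and 16 reads, 20.8 and 9.83 (-1.01, interval -1.92 to -0.16), while its intron 1 peak was at -0.047. The highest VEGF ligand peak with at least 60 reads was at the promoter of Vegfc (0.087). Of the receptors, Flt1 had 134 and 125 over 6 intron peaks (-0.095, interval -0.36 to 0.16), the strongest in intron 15 at 147543619 with 28.3 and 24.4. Its lowest peak was at 147556982 (-0.58) and its highest at 147653203 (0.46). Kdr, with 1 intron peak, was at -0.098, and Flt4, with 2, at 0.038. None of the 3 receptors had a peak at a start site.

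Among the remaining receptors, Axl and Ddr1 were lower at every peak (3 of 4 for Ddr1 under median-of-ratios scaling), and Ddr2 and Met were not. Axl (chr7:25456698-25488130), the receptor for GAS6, had 198 in SCR and 151 in siPiezo2 over 5 peaks (-0.39, interval -0.62 to -0.17; 491 and 235 reads). Its peaks ranged from -0.70 at an internal start (25463760, 55 and 23 reads, interval -1.47 to 0.024) to -0.16. The strongest, in intron 4 at 25480108, had 53.4 and 41.0 (-0.37). The peak at the promoter printed above had 32.2 and 25.2 (-0.34, interval -0.93 to 0.23). Its ligand gene Gas6 had 78.5 and 68.8 over 3 peaks (-0.19, interval -0.54 to 0.16), with the lowest downstream of the gene at 13514449 (-0.72) and the highest in intron 2 at 13542306 (0.30).

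Ddr1 and Ddr2 encode collagen receptors, and fibroblasts are known for Ddr2. Ddr1 (chr17:35992459-36013209) had 295 and 236 over 4 peaks (-0.32, interval -0.51 to -0.14; 775 and 353 reads). Of its start-site peaks, that at 36008561 had 221 and 75 reads, with densities of 84.2 and 50.1 (-0.74, interval -1.13 to -0.35). The one at 36011544, at the promoter printed above, was the strongest, with 85.4 and 72.4 (-0.23, interval -0.58 to 0.10). The remaining start-site peak, in the 5′ UTR at 36012957, was at -0.11. Ddr2 (chr1:169799876-169938331) had 464 and 463 over 13 peaks (-0.0027, interval -0.14 to 0.13; 1160 and 723 reads), 6 of them lower. Its strongest peak, in intron 2 at 169886952, had 69.2 and 57.9 (-0.25). Single peaks of Ddr2 lay far apart, from -0.98 in intron 14 at 169813747 (62 and 21 reads) to 0.87 in intron 7 at 169830608 (45 and 57 reads). Both were nearest to the start of another gene, as were 6 of the 13 in all.

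Met (chr6:17463799-17573979), the receptor of hepatocyte growth factor, had 193 and 196 over 9 peaks (0.018, interval -0.19 to 0.23; 455 and 318 reads), 5 of them lower. The peak in exon 13 (chr6:17546950-17547152) was called in siPiezo2 only and had 27 reads in SCR and 48 in siPiezo2. Its densities of 11.8 and 29.0 gave the highest log2 ratio of all member peaks, 1.22 (interval 0.51 to 1.96). The strongest peak of Met, in intron 3 at 17501457, had 29.0 and 25.7 (-0.17). Hgf, the gene of its ligand, had 1 peak in the 5′ UTR with 46 and 24 reads (-0.42, interval -1.20 to 0.32).

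At start sites, where a peak can be tied to its gene with least doubt, 27 of the 46 members had a peak. The 25 promoter peaks within 1 kb of a start had a median log2 ratio of -0.10, against -0.030 for all such peaks. Of them 16 were lower (64%, against 53.7% of all), and 11 under median-of-ratios scaling (44%, against 36.9%). The 8 peaks in 5′ UTRs were all lower, where 55.4% of all 2599 peaks of that class were, with a median of -0.30 against -0.043. Under median-of-ratios scaling 7 were lower (87.5%, against 39.2%). Only the 5′ UTR peak of Pdgfrb had an interval wholly below 0 (-0.93 to -0.14). At Met, Ddr2 and Pdgfa the 5′ UTR window overlaps a promoter window of the same gene, so some reads count in both classes. Below 0.66 of SCR were 5 of the 25 promoter peaks (20%, against 5.86% of all 9251 such peaks), at Vegfd (-1.01), Fgfr1 (-0.85), Ddr1 (-0.74), Axl (-0.70) and Ereg (-0.66). Those of Vegfd and Fgfr1 stayed below under each of 4 other scalings. Under median-of-ratios scaling Axl (-0.57) and Ereg (-0.52) came inside the limit, and under trimmed mean scaling Ddr1 (-0.60) did as well. Ereg was also inside at the same total density (-0.57), and Axl in recovered reads at the same total (-0.49). The highest were those of Fgfr2 (0.27), Fgf7 (0.26) and Fgf15 (0.20), whose intervals included 0. The interval of the Axl peak at -0.70 (-1.47 to 0.024) included 0 as well.

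**Figure D5:**
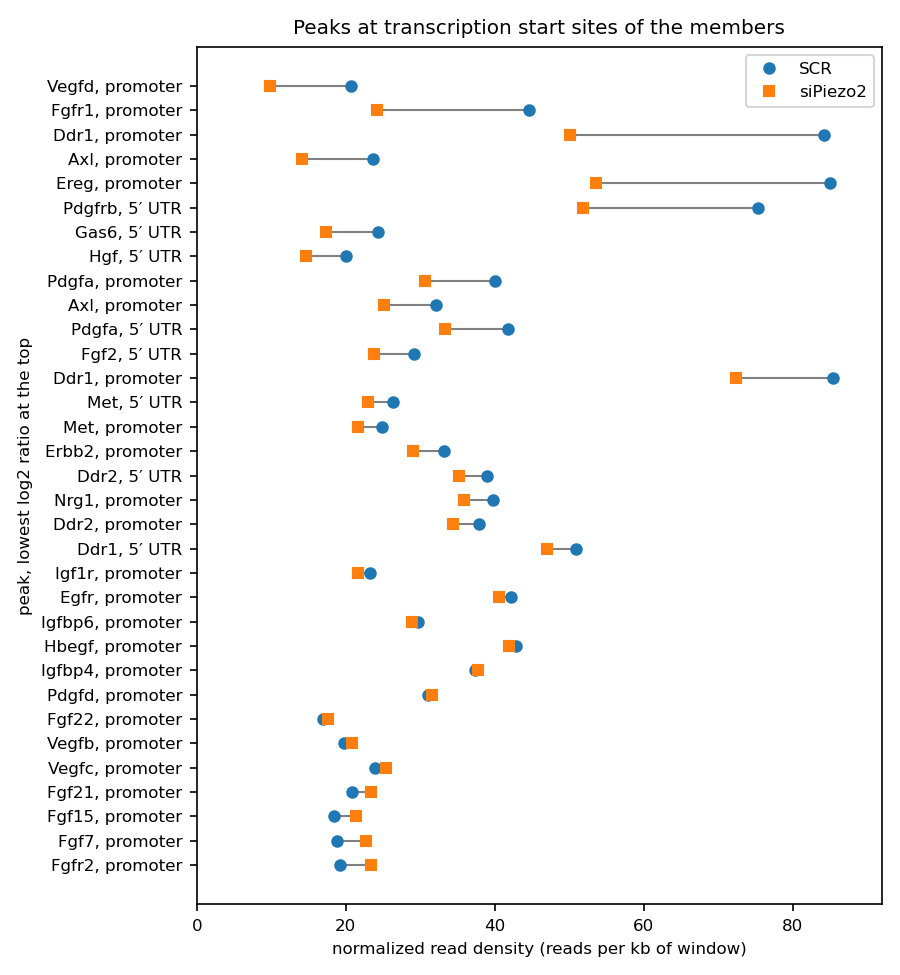
Normalized read density in reads per kb of window (x axis, from 0) in SCR (circles) and siPiezo2 (squares) for the 33 member peaks at promoters within 1 kb or in 5′ UTRs, 1 library per group, ordered by log2 ratio with the lowest at the top. The longest lines belong to Ddr1 (84.2 and 50.1), Ereg (85.0 and 53.6), Pdgfrb (75.3 and 51.9) and Fgfr1 (44.6 and 24.2).

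A list of 46 adaptors, kinases, inhibitors and coreceptors that act with these receptors was read in the same way. Of them 44 had a peak (Hras and Spred3 had none), with a median log2 ratio of -0.063, and 27 were below 0 (61.4%, against 62.6% of all genes). Gpc1, which encodes a heparan sulfate coreceptor of FGFs, was below 0.66 of SCR (-0.69, interval -1.44 to 0.024; 57 and 24 reads), and no gene of the list was above 1.5. That is 2.27% and 0%, against 6.21% and 1.54% of all genes. Both calls depended on the scaling: with median-of-ratios, trimmed mean and recovered-read scaling, Gpc1 (-0.56, -0.55 and -0.48) was inside the limit and Sos2 (0.59, 0.59 and 0.69) was above 1.5. The interval lay wholly below the all-gene median for 2 genes (4.55%, against 9.01% of all genes). Frs2, the docking adaptor of FGF receptors, had 325 and 232 over 9 peaks (-0.48, interval -0.67 to -0.30), and Nrp1, a VEGF coreceptor, had 187 and 140 (-0.41, interval -0.65 to -0.18). The interval lay wholly above for 7 genes (15.9%, against 8.47% of all genes). The number of reads sets its width, and of all genes with 300 or more reads 14% lay wholly above and 16.3% wholly below. No widened interval is given for this list. Among the 7 was Sos2, a guanine nucleotide exchange factor for RAS (51.6 and 70.8, 0.45, interval 0.068 to 0.83). Irs2, an insulin and IGF receptor substrate (105 and 129, 0.30, interval 0.023 to 0.57), was another. Irs1, also such a substrate (118 and 141, 0.25), and Dusp5, which inactivates ERK (67.2 and 81.5, 0.27), were among them as well. Their intervals, -0.0039 to 0.51 and -0.070 to 0.62, included 0. Intervals of Sprouty genes, feedback inhibitors that ERK signalling induces, included both 0 and the all-gene median. Their values were -0.096 for Spry1, 0.14 for Spry2 and 0.13 for Spry4.

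The 18 members without an assigned peak were Pdgfb, Areg, Fgf3, Fgf4, Fgf5, Fgf6, Fgf8, Fgf9, Fgf11, Fgf13, Fgf16, Fgf17, Fgfr3, Fgfr4, Igf2, Igfbp1, Igfbp3 and Flt3. No value of theirs is given, since the table lists called peaks only. Peaks in distal intergenic sequence carry no gene in the table, and so any that act on the members are not among the 242.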

How the data were processed

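ATAC-seq libraries were analysed from 2 samples, 1 per group. Per the study's methods, adapters were trimmed, reads were aligned with bwa (BWA 0.7.12 in the submitters' processing notes), duplicates were removed with Picard and peaks were called with MACS2. The notes name mm10, but the table's scaffold names are those of GRCm39. The deposited table gives, per peak, a normalized read density for each library (signal). The study's methods describe featureCounts and a count-based test of differential peaks whereas the column names (M and A values) point to an MA-plot method, not given in the sources used here. That the densities were scaled between libraries by a straight-line fit of the log2 ratio against mean log2 density was inferred from the values. The authors' log2 columns and p-value columns hold their own comparison and were not used.

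The number of reads in each 2000 bp window was recovered from the densities (fit slope 0.174, intercept -0.248; whole within 0.05 for 100% of peaks), with 1 added read per window taken off. That added read is a property of such MA-plot normalization and cannot be checked from the values. All windows together held 4615335 SCR reads and 2754046 siPiezo2 reads. Of the windows, 6611 overlapped the one before, so a gene with close peaks has an interval that is too narrow. PCR reads without molecular identifiers are not independent molecules, so intervals cover counting error only. Log2 ratios used a pseudocount of 1, which understates differences at weak peaks, and the limits 0.66 and 1.5 are those the study's methods give for RNA-seq, used here for ATAC-seq densities. No test was made, with 1 library per group.

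Members, families, the pathway list and the markers were chosen with earlier results of these data known. Full values are given for members with at least 300 reads, past 1.5-fold, or with an interval off the all-gene median; the peaks named are the lowest and highest of each family with at least 60 reads and the strongest of each gene given in full. The Nrg1 split, the stretches and single peaks named beside these were chosen after seeing values. Alternatives covered pseudocount, scaling, peak choice and fold. The recovery and intervals were run on simulated reads that followed the same fit and varied by counting error only. Extra variance and the shared reads of overlapping windows were not simulated, so the run cannot check the intervals for these. Promoters were matched by symbol and transcript; for members without an entry none was printed. Calculations ran in Python 3.11.15 with scipy 1.17.1 (intervals), numpy 2.4.6, pandas 2.3.3 and, for plots, matplotlib 3.10.9.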

Additional observations from a re-analysis of the deposited data

How the results depend on the processing

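No paired analysis was possible because each group had 1 library and the labels give no shared replicate numbers, and leaving out a replicate would leave a group empty. Scaling moved the all-gene median from -0.093 to 0.043 (median-of-ratios), -0.0076 (same total density), 0.046 (trimmed mean) and 0.030 (recovered reads at the same total), so medians and single genes were compared relative to it. Of 471 values for single genes, 439 kept their place, 27 moved and 5 reversed. The reversed values were Egfr (-0.055) and Fgfr2 (0.27) over promoter peaks only, Fgfr1 (0.12) and Fgfr2 (0.079) over the strongest peak of each gene, and Igfbp7 (-0.38) over peaks nearest to its own start; each rests on 1 peak. Of 234 counts and medians, 180 kept their place and 54 moved.

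Member genes below 0.66 numbered 1 in place of 2 under the median-of-ratios, same-total, trimmed mean and recovered-read scalings and with peaks at or above the first quartile, 0 at a limit of 2-fold, and 6 over the strongest peak, where 1 gene was above 1.5, as was 1 with recovered reads. Over promoter peaks only, the genes below were Vegfd (-1.01), Fgfr1 (-0.85) and Ereg (-0.66). Igfbp2 and Igf1 have no promoter peak. Member peaks below and above the limits, 40 and 5 as reported, numbered 24 and 10 with median-of-ratios scaling, 23 and 10 with trimmed mean scaling, 22 and 15 with recovered reads, 5 and 0 at promoters, 24 and 3 for peaks nearest to the member's own start, 8 and 1 at 2-fold, and 26 below with peaks at or above the first quartile. Pathway genes below and above, 1 and 0 as reported, numbered 0 and 1 with median-of-ratios, trimmed mean and recovered-read scaling, 0 below at promoters and at 2-fold, and 4 below over the strongest peak. With intervals widened by extra variance, 2 members lay below and 0 above the all-gene median (0 and 0 with the factor from the mean, chosen after seeing the data), and 0 lay above with peaks nearest to their own start.

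The members' median relative to all genes was -0.051, and -0.0085 with separate windows only and -0.014 with peaks nearest to their own start. Relative to all genes, family medians that moved over promoter peaks were -0.12 for EGF-family ligands, -0.094 for ERBB receptors, 0.21 for FGF ligands, -0.27 for FGF receptors, 0.014 for IGF binding proteins, -0.076 for IGF receptors and -0.30 for the group of Met, Axl and DDR receptors. Over the strongest peak they were -0.59 for EGF-family ligands, 0.16 for FGF receptors, 0.21 for IGF receptors, 0.083 for PDGF ligands and -0.18 for the Met, Axl and DDR group. That group was at -0.16 with recovered reads, FGF ligands at -0.083 with stronger peaks, FGF receptors at -0.24 without the peaks on the longest Fgfr2 transcript, and IGF receptors at -0.13 with peaks nearest to their own start. The alternatives on the longest Fgfr2 transcript and on nearest starts were chosen after seeing the data. Except where the alternative leaves fewer peaks or reads by construction, the cause was not tested.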
